A study of Mus musculus with 5 samples.

Results

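Muscle fibres burn fatty acids in mitochondria, and 42 genes of fatty acid uptake, storage and oxidation were followed here through 5 libraries of gastrocnemius muscle. The genes are a fixed list of names, drawn up with earlier results of these data known, and were found by Ensembl identifier among the 35275 genes of the table. All 42 were present, and all 42 averaged at least 1 FPKM, the level from which the 10710 genes of the spread tests were taken. The muscle came from female NSG mice (an immunodeficient NOD scid gamma strain), genotype Wild Type, at week 12 of age. The mice had been given MCF-10A/miR122 EV, extracellular vesicles of MCF-10A cells, a non-tumorigenic human mammary epithelial line, whose label also names miR122, a microRNA. There were 10 tail-vein doses of about 10 µg, given 2 times a week over 5 weeks, and the muscle was removed 2 days after the last dose. All 5 samples belong to 1 group that shares strain, sex, age and treatment, and no untreated muscle was analysed here. So the values show the levels of these genes in treated muscle, how the steps compare within a library, and how far the libraries lay apart. The labels number the samples 1 to 5 without saying that each is a separate animal, so an SD is the spread between these samples and may be technical.

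Fatty acids reach the fibre as triglyceride in lipoproteins, which lipoprotein lipase splits at the capillary wall, or bound to albumin. Transport proteins bring them across the membrane, acyl-CoA synthetases activate them, and the activated chain is either stored in lipid droplets or passed to carnitine and carried into the mitochondrion. There it is shortened in rounds of the beta-oxidation spiral, whose electrons enter the respiratory chain through the electron-transferring flavoprotein. Malonyl-CoA blocks the entry step, so the enzymes that make and destroy it help set how much fat is burned. Slow and oxidative fibres are known to rely on this pathway more than fast glycolytic fibres, which make up most of the gastrocnemius.

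The libraries held 16674504 to 25407988 reads, and FPKM is a gene's reads scaled to its length and to the library total. The members had a median of 2211 reads per library, and at least 44. Fast fibre markers summed to 55758 to 86899.5 FPKM and slow fibre markers to 1434 to 4557 FPKM, so markers of the labelled tissue were present. The 4 heart markers summed to 13.5 to 43.6 FPKM, nearly all of it Myh6, with Nppa and Myl7 at 0 in all 5 libraries. Some libraries stood apart. Slow fibre markers were highest in library 2 for 9 of 10 genes (23.2% of tested genes) and fast fibre markers lowest there for 10 of 12 (9.80%). Library 3 was highest for 9 of 9 measured macrophage genes, 7 of 7 of regenerating fibres, 9 of 11 of adipocytes and 4 of 6 of fibroblasts. It was also highest for 37.4% of all tested genes. In such bulk tissue, fewer cells of a type and less RNA per cell cannot be told apart.

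Upstream sequence was set beside the levels for 3 loci, because a member pair shares one and because the motif of nuclear receptors that act on this pathway occurs in the others. RefSeq promoter windows on GRCm38.p6 (250 bases before to 50 after a start) were found for 34 of 42 members, 42 windows in all. Hadha and Hadhb, which encode the subunits of one enzyme, lie head to head on chromosome 5, and their annotated ends are 86 bases apart. The 85 bases between them (chr5:30155163-30155247, plus strand, in the direction of Hadhb) are given first, with no part in capitals. The other 2 are stretches upstream of Acadm (chr3:153944856-153944893, minus strand) and Acsl6 (chr11:54303623-54303693, plus strand), each 5′ to 3′ on the strand of the gene. Capitals mark the nuclear receptor half-site AAGGTCA, which reads in reverse complement in both.
Hadha and Hadhb, between the genes: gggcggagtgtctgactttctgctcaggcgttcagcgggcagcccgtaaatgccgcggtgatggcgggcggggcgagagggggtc
Acadm, upstream: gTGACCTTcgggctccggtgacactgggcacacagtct
Acsl6, upstream: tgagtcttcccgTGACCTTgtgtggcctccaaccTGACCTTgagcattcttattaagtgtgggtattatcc
The half-site AAGGTCA, searched on both strands, lay in the windows of 3 members (Acadm, Acacb and Acsl6), and in 4.72% of all 32851 windows. Its extended form TNAAGGTCA, which overlaps it and is bound by oestrogen-related receptors, lay in 1 member window (Acsl6) and in 1.28% of all. The direct repeat of the PPAR and RXR receptors, AGGNCA repeated after 1 base (N), lay in no member window and in 0.381% of all, and the MEF2 letters CTA and TAG with 4 bases (N) between them in none and in 3.69%. The E-box CACGTG lay in windows of 4 members (Lipe, Mgll, Plin2 and Slc27a1) and in 7.15% of all. A match describes these letters and is not a binding site. Counted from the RefSeq start, the half-site began at position -249 in Acadm and at -189 and -167 in Acsl6.

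FPKM is per length, so levels are set side by side between genes here. The exon length used for each gene is not known, and for Echs1 the smallest that fitted was 4088 bases against 8286 annotated. Ranks, ratios between genes and step shares depend on that length. The levels of the members differed widely, and most lay well above the typical expressed gene. The median of the 42 means was 34.8 FPKM, against 6.0 over the tested genes, and 36 of 42 lay above that. Of the members, 10 reached a mean of 100 FPKM, 21 lay from 10 to 100 and 11 lay under 10. At the top stood Fabp3 (rank 171 of the tested genes), Etfb (194), Lpl (306), Etfa (320) and Ech1 (351). At the bottom stood Cpt1a, Cpt1b, Acaca and Angptl4, at means of 3.49, 2.68, 2.43 and 1.498 FPKM.

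**Figure D1:**
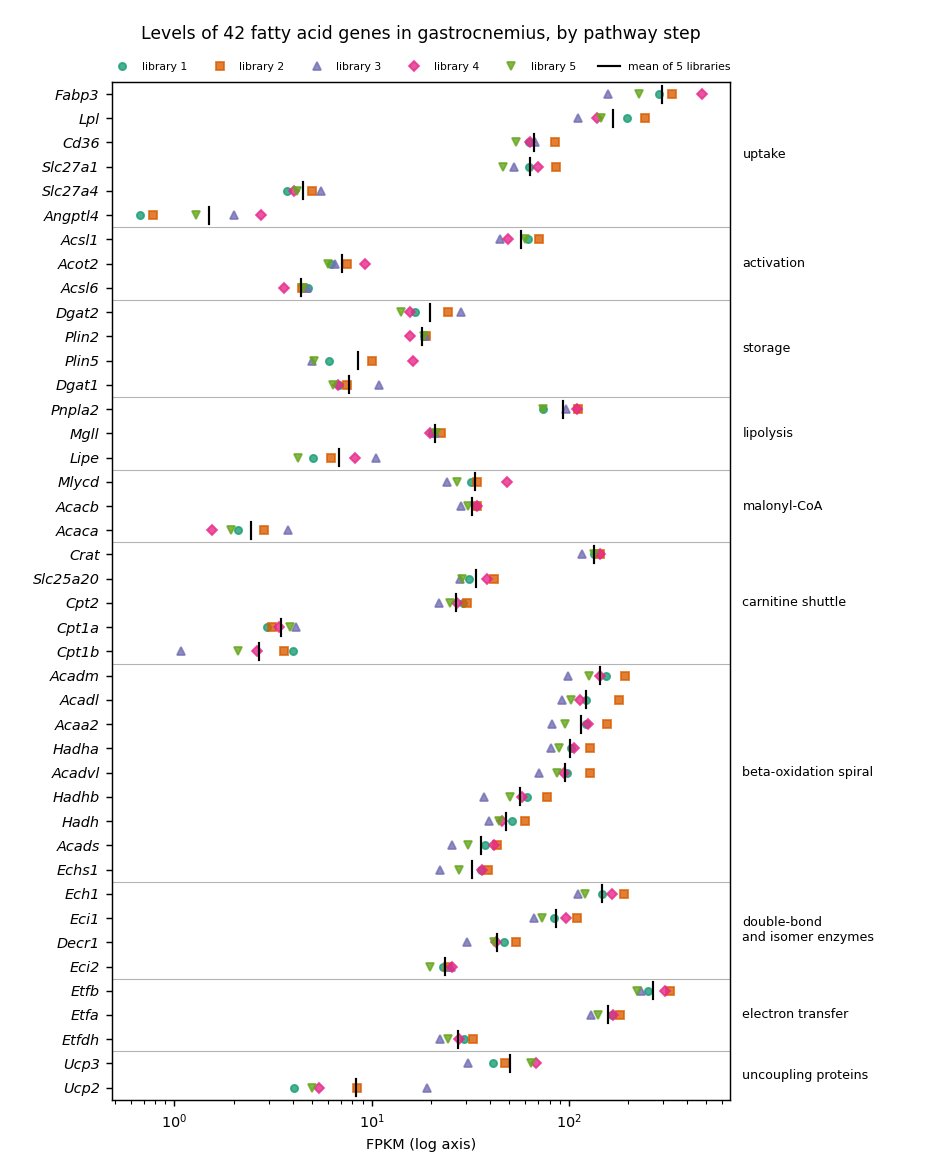
FPKM of each of the 42 genes (x axis, log scale) by pathway step (y axis), with 1 coloured symbol per library and a black bar at the mean of the 5 libraries. All 9 genes of the beta-oxidation spiral have library 2 at the right, which under median-of-ratios scaling holds for 7, and library 3 at the left, and the lowest means are those of Angptl4, Acaca and Cpt1b.

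Of the uptake genes, the fatty acid binding protein and lipoprotein lipase were the most abundant. Fabp3 (ENSMUSG00000028773, chromosome 4, 130308595 to 130315463 on mm10), the binding protein of heart and skeletal muscle, was at 289, 336, 159, 475 and 228 FPKM in libraries 1 to 5. Library 4 was highest and library 3 lowest, a 2.98-fold range around a mean of 297 ± 119 FPKM (SD, n = 5). Part of its exons (19.6%) lie opposite those of other genes such as Zcchc17, at 17.0 FPKM, and the sources used here do not say whether counting used strand. Lpl (ENSMUSG00000015568, chromosome 8, 68880491 to 68907448), the enzyme that frees fatty acids from lipoproteins, was at 197, 243, 112, 139 and 147 FPKM. Libraries 1 and 2 stood above the other three, and library 3 was again lowest. Angptl4, which inhibits lipoprotein lipase, was at only 0.672, 0.778, 2.004, 2.75 and 1.29 FPKM, with libraries 3 and 4 highest. It rested on 44 to 200 reads per library.

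The 3 membrane transporters were of unequal level. Cd36 (ENSMUSG00000002944, chromosome 5, 17781690 to 17888801), the fatty acid translocase of fibres and capillaries, was at 62.6, 85.4, 67.5, 63.7 and 54.05 FPKM. Library 2 stood above the rest, which lay close together, and without it the coefficient of variation (CV, the SD as a percentage of the mean) was 9.17% in place of 17.4%. Slc27a1, the transport protein FATP1, was at 62.7, 86.5, 52.5, 69.97 and 46.5 FPKM, also highest in library 2 and lowest in library 5. Slc27a4, the related FATP4, was at 3.74, 4.99, 5.53, 4.03 and 4.17 FPKM, in every library below Slc27a1, by 9.49 to 17.4 times. Its highest value was in library 3. Cd36 and Lpl are also made by endothelial cells. The 12 endothelial markers summed to 269 to 349 FPKM, with the highest sum in library 2, none of them was at 0 throughout, and their part in the level of Cd36 and Lpl was not tested.

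Of the activating synthetases, Acsl1 was by far the more abundant. Acsl1 (ENSMUSG00000018796, chromosome 8, 46471037 to 46536051), the main long-chain acyl-CoA synthetase of muscle, was at 61.9, 70.6, 45.1, 49.4 and 60.3 FPKM, highest in library 2 and lowest in library 3. Acsl6, a form known from brain, was at 4.77, 4.44, 4.69, 3.60 and 4.50 FPKM, and 9.61 to 15.9 times lower than Acsl1 within a library. Library 4 was lowest. Acot2, a mitochondrial thioesterase that reverses activation, was at 6.20, 7.52, 6.50, 9.27 and 5.99 FPKM, highest in library 4. Its neighbour Acot1 is very similar in sequence, so reads may be split between them. Acot1 was at 0.839, 1.25, 0.615, 1.16 and 0.379 FPKM.

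Lipid droplet genes were at moderate levels and did not vary as one group. Dgat2 and Dgat1 make the last bond of triglyceride. Dgat2 was at 16.6, 24.4, 28.5, 15.6 and 14.2 FPKM and Dgat1 at 6.84, 7.54, 10.9, 6.74 and 6.34 FPKM. Both were highest in library 3, and Dgat2 was the higher of the pair in all 5 libraries, with a log2 ratio of Dgat1 to Dgat2 of -1.57 to -1.05. Without library 3 the CV of Dgat1 was 7.32% in place of 24.2%. Plin2, the general coat protein of droplets, was among the steadiest members at 18.4, 18.8, 18.7, 15.7 and 18.4 FPKM, with library 4 alone lower by FPKM. Plin5, which ties droplets to mitochondria in oxidative tissue, was at 6.08, 10.1, 5.01, 16.2 and 5.13 FPKM. It was about level with Plin2 in library 4 and well below it elsewhere, and its CV of 56.1% was 36.1% without library 4.

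Of the lipases, the first to act was the most abundant. Pnpla2 (ENSMUSG00000025509, chromosome 7, 141455198 to 141460743), the adipose triglyceride lipase that removes the first fatty acid, was at 74.1, 111, 96.4, 111 and 73.7 FPKM. Libraries 2 and 4 were highest and nearly equal, and libraries 1 and 5 lowest and nearly equal. Lipe, the hormone-sensitive lipase of the second step, was at 5.05, 6.23, 10.5, 8.29 and 4.24 FPKM, 9.20 to 17.8 times lower than Pnpla2 within a library. Its order differed from that of Pnpla2, with libraries 3 and 4 highest. Opposite 15.6% of its exon bases lie those of another gene, 4732471J01Rik, which was at 0. Mgll, the monoglyceride lipase of the last step, had the smallest spread of the 42 by FPKM, at 20.2, 22.4, 21.1, 19.7 and 21.2 FPKM (CV 4.91%).

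Adipocyte markers were highest in the same library as Lipe and the Dgat genes. Of 12 adipocyte markers all were in the table and none was at 0 throughout. Of the 11 that averaged at least 1 FPKM, 9 were highest in library 3, against 37.4% of tested genes. The adipocyte hormone Adipoq was at 5.64, 3.55, 33.6, 14.03 and 4.45 FPKM and the droplet protein Plin1 at 3.14, 2.79, 20.2, 7.73 and 2.75 FPKM, both highest in library 3 and next in library 4. The summed level of the 12 markers was 4230.0, 2635, 2678, 3064 and 3456 FPKM. Most of that was Car3, which muscle also makes. Without Car3 and Fabp4, which endothelial cells also make, the sum was 59.6, 55.7, 317, 159 and 71.6 FPKM. The part of adipocytes in the levels of Lipe, Dgat1, Dgat2, Acaca and Plin2 was not tested.

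Among the enzymes of malonyl-CoA, the mitochondrial form of the carboxylase prevailed. Acacb (ENSMUSG00000042010, chromosome 5, 114146535 to 114250761), whose malonyl-CoA blocks carnitine entry, was nearly constant at 33.9, 34.2, 28.4, 34.4 and 30.95 FPKM (CV 8.11%). Acaca, the cytosolic form that serves fat synthesis, was at 2.10, 2.83, 3.76, 1.55 and 1.93 FPKM, highest in library 3 and lowest in library 4. Within a library Acacb exceeded Acaca by 7.55 to 22.1 times. Mlycd, the decarboxylase that destroys malonyl-CoA, was at 32.1, 34.3, 24.3, 48.9 and 27.2 FPKM. It lay close to Acacb in 4 libraries and above it in library 4, where it was 1.42 times as high.

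The carnitine shuttle was measured unevenly. Crat (ENSMUSG00000026853, chromosome 2, 30400471 to 30415813), the carnitine acetyltransferase that buffers acetyl-CoA, was the most abundant gene of the shuttle at 134, 144, 117, 144 and 135 FPKM. It varied little by FPKM (CV 8.16%, and 3.80% without library 3). Under median-of-ratios scaling, which rescales each library by its median ratio to the others over genes, Crat was at 131, 137, 111, 157 and 143. Slc25a20, the carrier of the inner membrane, was at 31.3, 41.97, 28.1, 38.7 and 28.8 FPKM and Cpt2, the inner transferase, at 28.9, 30.6, 21.9, 27.2 and 24.9 FPKM. Both were lowest in library 3 and highest in library 2, or in library 4 under median-of-ratios scaling. Slc25a20 was the higher in all 5 libraries, by 1.08 to 1.43 times.

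The outer transferase, the entry step itself, was at the bottom of the list in both of its forms. Cpt1b (ENSMUSG00000078937, chromosome 15, 89416405 to 89425863), known as the muscle form, was at 3.98, 3.62, 1.08, 2.62 and 2.11 FPKM, from 52 to 264 reads. Cpt1a, known as the liver form, was at 2.96, 3.14, 4.13, 3.38 and 3.84 FPKM. Cpt1b was above Cpt1a in libraries 1 and 2 and below it in libraries 3, 4 and 5, so the order of the forms was not the same in all libraries. The level of Cpt1b is uncertain, because 81.4% of its annotated exon bases are also exon of Gm44502, a gene on the same strand that runs on from the neighbouring Chkb. Gm44502 is not among the identifiers of the table, Chkb was at 5.01, 5.30, 3.36, 5.11 and 3.69 FPKM, and the sources used here do not say how reads shared by overlapping genes were counted. Whether the overlap lowers the value of Cpt1b was not tested.

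The beta-oxidation spiral was the largest group, and its 9 genes shared their lowest library under both scalings. The acyl-CoA dehydrogenases of the spiral take chains of different length. Acadvl (very long chains) was at 98.2, 128, 70.9, 94.3 and 86.8 FPKM, Acadl (long) at 123, 180.3, 92.6, 114 and 103 FPKM, Acadm (medium) at 155, 194, 98.8, 145 and 127 FPKM and Acads (short) at 37.4, 43.1, 25.6, 41.7 and 30.9 FPKM. Each was highest in library 2 and lowest in library 3, except that Acads was highest in library 4 under median-of-ratios scaling. Acadm (ENSMUSG00000062908, chromosome 3, 153922357 to 153944632), with the half-site printed above, was the most abundant, and Acads the least, 2.26 to 2.98 times below Acadvl within a library. Acadl without library 2 had a CV of 12.2% in place of 27.9%. Of the exon bases of Acadvl 42.9% lie opposite those of Dvl2, which was at 2.45 FPKM.

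The enzymes of the later steps followed the same order of libraries at both ends. Hadha (ENSMUSG00000025745, chromosome 5, 30118304 to 30155162) and Hadhb (ENSMUSG00000059447, chromosome 5, 30155248 to 30184593), the alpha and beta subunits of the trifunctional protein, were at 103, 129, 81.8, 106 and 89.5 FPKM and 61.6, 77.7, 36.98, 57.7 and 50.6 FPKM. The genes start on either side of the short stretch printed above, and Hadha was above Hadhb in all 5 libraries, by 1.66 to 2.21 times, with the widest gap in library 3. Echs1 (short-chain hydratase) was at 35.8, 38.9, 22.3, 36.2 and 27.9 FPKM, Hadh (short-chain hydroxyacyl-CoA dehydrogenase) at 51.7, 60, 39.6, 45.9 and 44.5 FPKM and Acaa2 (mitochondrial thiolase) at 122, 156, 82.1, 125 and 95.6 FPKM. In all 9 genes of the spiral the lowest library was 3 and the highest was 2, the latter in 7 of 9 under median-of-ratios scaling.

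Unsaturated chains need extra enzymes, which showed a similar picture. Ech1, a dienoyl-CoA isomerase, was at 147, 190.4, 111, 166 and 121 FPKM, Eci1, an enoyl-CoA isomerase, at 84.1, 111, 66.8, 96.4 and 73.6 FPKM and Decr1, the 2,4-dienoyl-CoA reductase, at 47.2, 53.99, 30.3, 42.9 and 41.9 FPKM. These 3 were highest in library 2 and lowest in library 3. Eci2, an isomerase found also in peroxisomes, stood apart at 23.1, 24.4, 25.2, 25.6 and 19.7 FPKM: its values in libraries 1 to 4 lay close together and library 5 was lowest. Without library 5 its CV by FPKM was 4.40% in place of 10.0%. Under median-of-ratios scaling library 4 stood higher for Eci2, at 27.9 against 20.9 to 23.9 in the others.

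Electrons of the dehydrogenases pass to the flavoprotein Etfa and Etfb and on to its oxidoreductase Etfdh. Etfb was at 254, 327, 233, 309 and 223 FPKM, Etfa at 167, 183, 129.9, 169 and 141 FPKM and Etfdh at 29.5, 32.5, 22.2, 27.9 and 24.5 FPKM. All 3 were highest in library 2 by FPKM, and under median-of-ratios scaling Etfdh was and Etfa and Etfb were highest in library 4. Etfdh was several times below both subunits in every library. Etfa lay below Etfb in each library, at 0.547 to 0.656 of its level. For Etfb, 58.2% of the annotated exon bases are shared with other genes on the same strand, mainly Gm45233, so its level is uncertain in the same way as that of Cpt1b.

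The uncoupling proteins differed most in library 3, where Ucp3 was at its lowest and Ucp2 at its highest. Ucp3 (ENSMUSG00000032942, chromosome 7, 100472990 to 100486432), the muscle form, which is tied to fatty acid handling, was at 41.3, 47.6, 30.8, 67.98 and 64.04 FPKM. Libraries 4 and 5 were highest. Ucp2 (ENSMUSG00000033685, chromosome 7, 100493337 to 100502020), its neighbour on chromosome 7 and a form abundant in immune cells, was at 4.06, 8.43, 19.01, 5.43 and 4.97 FPKM. Library 3 stood far above the rest, and without it the CV of 73.5%, the largest of the 42, was 33.1%. The ratio of Ucp3 to Ucp2 was 1.62 in library 3 and at least 5.64 in the others. The 10 macrophage markers summed to 99.1, 124, 365, 93.1 and 97.8 FPKM, and none was at 0 throughout. The 9 of them that averaged at least 1 FPKM were all highest in library 3, against 37.4% of tested genes. Their part in the level of Ucp2 was not tested.

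Set side by side, the spiral and uptake took the largest shares of the summed level. The FPKM of all members summed to 2691, 3319, 2094, 2986 and 2319 in libraries 1 to 5, lowest in library 3 and highest in library 2. The 9 genes of the spiral took 28.0% ± 1.98 of that sum (SD, n = 5), the 6 of uptake 22.1% ± 2.36, the 3 of electron transfer 17.0% ± 0.798 and the 4 enzymes for double bonds and isomers 11.2% ± 0.145. The carnitine shuttle took 7.61% ± 0.694 and lipolysis 4.59% ± 0.917. Activation, malonyl-CoA, uncoupling proteins and storage each took about 2.07% to 2.60%. The share of the double-bond enzymes hardly moved (11.1% to 11.4%), while that of uptake ranged from 19.0% to 25.3%. Lipolysis took its largest share in library 3 (6.11%) against 3.69% to 4.65% in the others. Its summed level there, 128 FPKM, was below that in libraries 2 (139.7 FPKM) and 4 (138.8 FPKM).

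Library 2 was the highest for 24 of 42 members, against 23.2% of the tested genes, and library 3 the lowest for 25 of 42, against 17.1%. Both held at once for 18 members and for 5.1% of the tested genes. Another 9 members were highest in library 4 (10.5% of tested genes), namely Fabp3, Crat, Ucp3, Mlycd, Acacb, Eci2, Plin5, Acot2 and Angptl4, and 7 in library 3 (37.4%), namely Dgat2, Ucp2, Dgat1, Lipe, Slc27a4, Cpt1a and Acaca. No member was highest in library 5 (7.68% of tested genes) or lowest in library 2 (9.80%). Without library 3, library 2 was highest for 29 members (41.1% of tested genes), and without library 2, library 3 was lowest for 25 (19.4%). Several of these counts depended on how the libraries were scaled. Under median-of-ratios scaling, which lowers library 2 and raises library 4 relative to FPKM by log2 shifts of -0.07 and 0.12, library 2 was highest for 15 members (16% of tested genes) and library 4 for 16 (23.1%). Library 3 was then lowest for 26 members (27.3%) and highest for 6 (28.6%). Library 5 was highest for 4 (Acsl6, Cpt1a, Plin2 and Mgll), and still no member was lowest in library 2. For these counts of libraries 5 and 2 the share of tested genes under that scaling was not taken. In the spiral, 7 of 9 genes were still highest in library 2 under that scaling, the exceptions being Acads and Echs1, and all 9 were lowest in library 3. Highest in library 2 under it were also 1 of the 3 electron transfer genes, 3 of the 4 enzymes for double bonds and isomers and 0 of the 5 genes of the carnitine shuttle, where library 4 was highest for 3 of the 5.

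**Figure D2:**
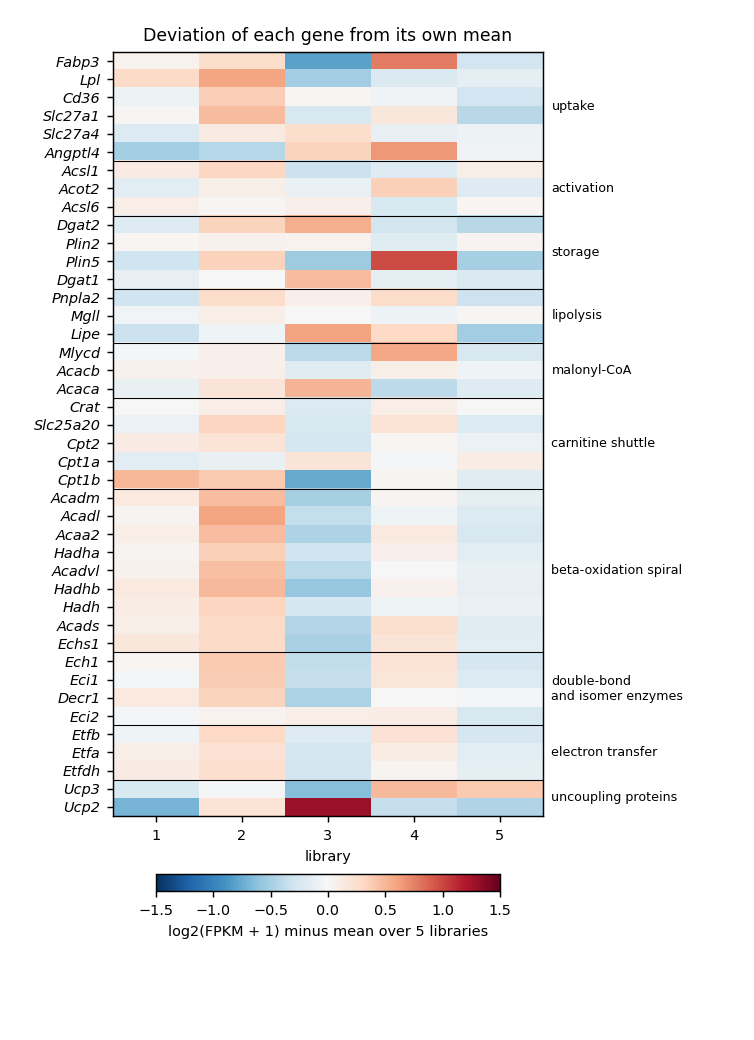
Colour gives the log2(FPKM + 1) of each gene (rows, by pathway step) minus its mean over the 5 libraries (columns), red above and blue below the mean. Library 2 is red and library 3 blue throughout the beta-oxidation spiral, while Dgat2, Dgat1, Lipe, Acaca and Ucp2 are red in library 3.

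Scores per step, the mean of those log2 deviations over the genes of a step, put library 3 last for the spiral, the double-bond enzymes and electron transfer under both scalings, while library 2 came first in all 3 by FPKM and in the spiral alone under median-of-ratios scaling. For the spiral the scores were 0.10, 0.41, -0.42, 0.07 and -0.16 in libraries 1 to 5. They were 0.03, 0.29, -0.27, 0.13 and -0.18 for the double-bond enzymes and 0.05, 0.26, -0.24, 0.12 and -0.18 for electron transfer, a smaller gap between libraries 2 and 3 than in the spiral. The carnitine shuttle had 0.07, 0.18, -0.25, 0.07 and -0.07, and uptake -0.07, 0.24, -0.16, 0.20 and -0.21. Library 5 was lowest for uptake by FPKM, and library 3 (-0.23) under median-of-ratios scaling. Lipolysis by FPKM went another way, at -0.22, 0.10, 0.23, 0.16 and -0.27, highest in library 3. Most of that was Lipe, at 0.61 in library 3 against 0.07 for Pnpla2 and 0.01 for Mgll. By FPKM, Pnpla2 and Mgll were highest in library 2. Storage at -0.15, 0.19, 0.14, 0.10 and -0.27 had library 3 near library 2. Under median-of-ratios scaling library 4 scored highest in every step but the spiral (library 2, 0.34) and the uncoupling proteins (library 3, 0.25). Its scores were then 0.24 against 0.19 in library 2 for electron transfer, 0.25 against 0.22 for the double-bond enzymes, and 0.28 against 0.15 in library 3 for lipolysis. Slow fibre markers scored -0.23, 1.11, -0.35, -0.48 and -0.06, with the highest score in library 2 as well, and their summed level was 1799.5, 4557, 1434, 1495 and 2038 FPKM. Their lowest score was in library 4 and not in library 3. Fast fibre markers scored 0.19, -0.30, -0.07, 0.12 and 0.06, lowest in library 2, and summed to 77293, 55758, 66335, 86899.5 and 79629 FPKM. Regenerating fibre markers summed to 18.8 to 125 FPKM and red blood cell markers to 328 to 1028 FPKM, both with the highest sum in library 3 and no marker at 0 throughout. Fibroblast markers summed to 761 to 1400.0 FPKM, highest there too, and most of that sum was collagen genes. Pdgfra and Dcn were instead highest in library 2, at 6.32 and 300 FPKM, against 5.04 and 202 FPKM in library 3. The part of slow and fast fibres, regenerating fibres, macrophages, fibroblasts and red blood cells in the pattern of the spiral was not tested.

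**Figure D3:**
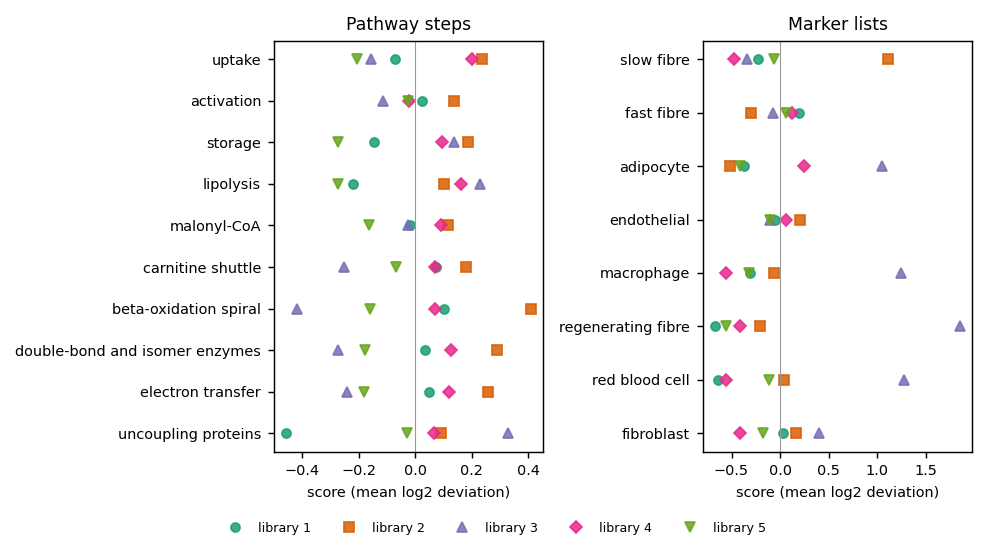
Scores (x axis, mean log2 deviation of the genes from their own means) of the pathway steps (left) and of cell type marker lists (right), with 1 symbol per library. Library 2 leads the spiral at 0.41 and the slow fibre list at 1.11, and library 3 leads lipolysis at 0.23 (library 4 under median-of-ratios scaling). Of the marker lists, library 3 leads those of regenerating fibres (1.85), red blood cells (1.27), macrophages (1.25), adipocytes (1.05) and fibroblasts (0.40).

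The spread of the members was larger than counting error, and no member passed a test of spread against genes of similar level. The CV by FPKM ranged from 4.91% (Mgll) to 73.5% (Ucp2). Its median was 20.6%, against 16.3% over the tested genes and 2.19% from counting alone in the members. In a chi-square test of reads with Benjamini-Hochberg adjustment, 42 of 42 members varied by more than counting error, as did 87.9% of the tested genes. When the spread was instead compared with the trend of genes of similar level (limma, one-sided, Benjamini-Hochberg adjustment over 10710 genes), 0 of 42 members and 0.0% of the tested genes passed 0.05. The lowest adjusted p in limma over all tested genes was 0.640. With 5 libraries this test could hardly call any gene, so 0 members says little about their spread. Unadjusted p-values under 0.05 were found for 3 members, Ucp2 (0.00842), Plin5 (0.0167) and Fabp3 (0.0309), and for 616 of the tested genes (5.75%). Their adjusted p in limma were 0.663, 0.730 and 0.809. With voom weights on recovered reads the same test passed 0 members, with an unadjusted p under 0.05 for 7 members and for 5.42% of the tested genes.

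**Figure D4:**
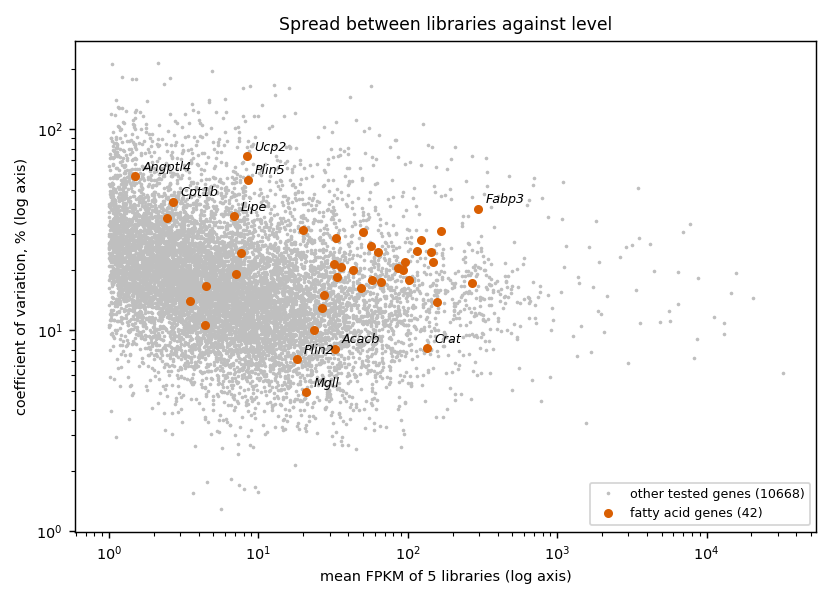
Coefficient of variation between the 5 libraries (y axis, log scale) against mean FPKM (x axis, log scale), with the 42 genes in orange and the other tested genes in grey. Ucp2, Plin5 and Fabp3 lie high for their level, and Mgll, Plin2, Acacb and Crat lie low.

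Within a library, 16 of 19 pairs of members kept the same order in all 5 libraries. The ratio, taken as the difference of log2(FPKM + 1), was 3.42 ± 0.25 for Acsl1 to Acsl6, 3.53 ± 0.39 for Slc27a1 to Slc27a4 and 3.31 ± 0.44 for Acacb to Acaca (SD, n = 5). In each of these the first gene named was the higher one. Lpl exceeded its inhibitor Angptl4 by 6.09 ± 0.89, and Pnpla2 exceeded Lipe by 3.62 ± 0.33 and Mgll by a ratio of Mgll to Pnpla2 of -2.08 ± 0.29, so the first lipase was the highest of the 3. Narrower but constant in order were Hadha to Hadhb at 0.85 ± 0.16, Slc25a20 to Cpt2 at 0.32 ± 0.16, Acadl to Acadm at -0.23 ± 0.13 and Etfa to Etfb at -0.76 ± 0.12. The other pairs of constant order were Eci1 to Eci2 at 1.81 ± 0.28, Acadvl to Acads at 1.39 ± 0.15, Dgat1 to Dgat2 at -1.24 ± 0.21, Cd36 to Fabp3 at -2.06 ± 0.59, Cpt1b to Cpt2 at -2.97 ± 0.33 and Ucp3 to Ucp2 at 2.59 ± 1.16. The 3 pairs with a mixed order were Cpt1b to Cpt1a (-0.35 ± 0.66, p = 0.375, adjusted 0.396), Mlycd to Acacb (0.00 ± 0.29, p = 0.938, adjusted 0.938) and Plin5 to Plin2 (-1.13 ± 0.74, p = 0.125, adjusted 0.140), by exact permutation of signs, two-sided. For each of the 16 others that exact test gave p = 0.0625, the smallest that 5 libraries allow, and 0.0742 after Benjamini-Hochberg adjustment over the 19 pairs, so none could pass 0.05.

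**Figure D5:**
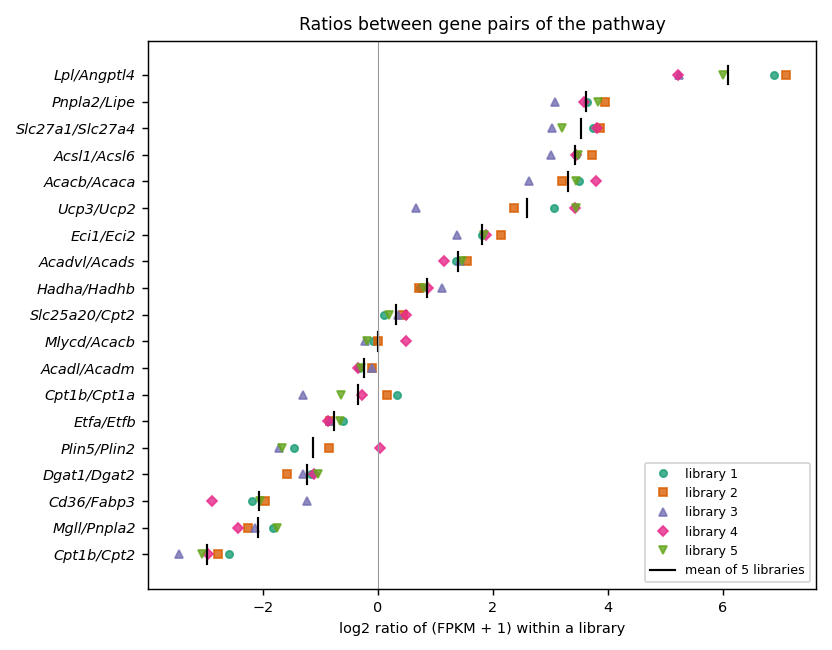
Difference of log2(FPKM + 1) between the 2 genes of a pair within a library (x axis) for 19 pairs (y axis), with 1 symbol per library and a bar at the mean. Only Mlycd/Acacb, Cpt1b/Cpt1a and Plin5/Plin2 have symbols on both sides of 0, and library 3 lies farthest left for Ucp3/Ucp2.

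Other genes of fat metabolism were taken from a list of 83 names. Its names Peci and Mmut, other symbols of the member Eci2 and of the listed Mut, were not matched. The remaining 81 were in the table, and 72 of them reached a mean of 1 FPKM. In the limma test of spread 0 of these 72 passed 0.05 (8 had an unadjusted p under 0.05, against 5.75% of the tested genes). Of the 72, 71 varied by more than counting error, with Gpat3 the exception, against 87.9%. Library 2 was highest for 18 of them (23.2% of tested genes), library 3 highest for 20 (37.4%) and library 3 lowest for 30 (17.1%). The most abundant were Fabp4 at 208 ± 40.0 FPKM, the thioredoxin-binding Txnip at 154 ± 18.9 FPKM and the acyl-CoA binding protein Dbi at 117 ± 20.8 FPKM (SD, n = 5). After them came Pdk4, Oxct1, an enzyme of ketone body use, at 73.9 ± 15.9 FPKM, and the receptor Esrra at 68.8 ± 7.68 FPKM.

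The genes of that list with the widest spread among those at 5 FPKM or more were Cidec, G0s2, Bdh1, Agpat2, Pdk4 and Acss1. Pdk4 encodes the kinase that inhibits pyruvate dehydrogenase and so spares pyruvate when fat is burned. It was at 75.3, 112, 44.8, 133 and 97.7 FPKM, highest in library 4 and lowest in library 3. By FPKM the same held for the members Fabp3, Crat, Ucp3, Mlycd, Acacb and Plin5. The share of tested genes with that order was not taken. G0s2, the inhibitor of the lipase encoded by Pnpla2, was at 14.9, 27.6, 46.4, 56.03 and 23.9 FPKM, highest in library 4 and next in library 3. Bdh1, a ketone body dehydrogenase, was at 8.26, 13.4, 2.25, 7.45 and 8.26 FPKM, highest in library 2 and lowest in library 3 like the spiral. Cidec, a droplet protein of adipocytes, was at 2.92, 3.45, 19.8, 7.32 and 3.50 FPKM and Agpat2, an acyltransferase of triglyceride synthesis, at 5.10, 6.81, 10.3, 5.58 and 3.57 FPKM, both highest in library 3. Acss1, a mitochondrial acetyl-CoA synthetase, was at 11.96, 9.63, 4.99, 6.37 and 6.58 FPKM, highest in library 1.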

How the data were processed

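Messenger RNA of about 20 mg of gastrocnemius, isolated on poly-T beads per the labels' protocols, was sequenced in 5 libraries. Per the submitters' processing notes, STAR 2.5 and TopHat, HTSeq 0.6.1, edgeR and DESeq2 were used with mm10, in roles and an order not recorded. The sources used here give no annotation release, strand setting or handling of multi-mapped reads. The authors deposited FPKM values, whose steps show reads divided by gene length and library total.

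Library totals were taken as the commonest value that made low genes whole at their GENCODE M21 exon length. The smallest length from 0.2 of the annotated one that made all 5 values whole within 0.001 of a read then gave the reads of 20840 of 20840 genes above 0 (100%), 98.7% to 98.9% of the totals. Reads of a gene may be a multiple of this. At 1 kb, 3 reads are 0.118 to 0.180 FPKM, which covers counting error only. Identifiers were matched to GENCODE M21 (GRCm38, mm10) for 34490 of 35275 genes. No columns of other samples were used.

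Genes that averaged at least 1 FPKM entered the test on log2(FPKM + 1) with limma 3.58.1 in R 4.3.3, as residual variance over its abundance trend (F with 4 and 3.93 degrees of freedom). The fold change of low genes is understated on that scale. The limma and chi-square tests were checked on simulated data. For limma this asked that genes of enlarged spread rank high, and did not require that they pass after adjustment. Pairs were tested with an exact sign-flip test over 32 patterns. Other steps ran in matplotlib 3.10.9, pandas 2.3.3, scipy 1.17.1 and numpy 2.4.6 under Python 3.11.15. All 42 members were named, with 11 genes of the wider list (6 highest means and 6 largest CVs at 5 FPKM or more, Pdk4 in both); marker genes, Chkb, Acot1, Gpat3 and overlapping genes were added as context. Members and lists were chosen with earlier results of these data known.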

Additional observations from a re-analysis of the deposited data

Results flagged for a closer look

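Of 71 sets of 5 values (42 levels, 10 step shares and 19 pair ratios), 5 had a library whose gap to the next was over 0.71 of the whole range of the set. Chance gives about 5% of such sets, and 5 of 71 is 7.04%. Plin2 was lowest in library 4 at 15.7 FPKM, against 18.4 to 18.8 in the others. Acsl6 was also lowest there, at 3.60 FPKM against 4.44 to 4.77. Under median-of-ratios scaling the widest gap for Plin2 was that of library 5, highest at 19.5 against 17.1 to 18.0 in the others. It was 0.656 of the range. For Acsl6 the widest gap was 0.378 of the range, with library 4 still lowest. Both gaps were below 0.71. Dgat1 had its highest level in library 3, 10.9 FPKM, against 6.34 to 7.54, and its gap was 0.815 of the range under that scaling. The storage genes took 3.01% of the summed FPKM in library 3 and 1.78% to 1.90% elsewhere. Electron transfer took 18.4% there and 16.4% to 16.9% elsewhere. Its summed level was nevertheless lowest in library 3, at 386 FPKM against 388 to 543 elsewhere, and the sum over all members was lowest there too (2094 FPKM). The summed level of the storage genes was highest in library 3, at 63.1 FPKM, against 60.9 FPKM in library 2 and 44.1 to 54.2 FPKM in the others.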

How the results depend on the processing

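Median-of-ratios scaling was the choice that mattered most. The members highest in library 2 went from 24 to 15, and the share of tested genes from 23.2% to 16%. Those lowest in library 3 went from 25 to 26 members, while the share of tested genes rose from 17.1% to 27.3%. Leaving out 1 library at a time gave 24 to 30 members highest in library 2 (24.5% to 41.1% of tested genes). It gave 25 to 27 lowest in library 3 (17.8% to 25.3% of tested genes). There were 40 to 41 members beyond counting error and 16 to 17 pairs of constant order. In each case 0 members passed the limma threshold. The number of tested genes past that threshold was 4 without library 3 and 0 otherwise. With so few genes past it in any setting, the 0 members say little about their spread. The mean ratio of Mlycd to Acacb was 0.00 and turned to -0.12 without library 4 (leaving out 1 library at a time, -0.12 to 0.061). No pair could pass 0.05 under any of these settings, so the test says nothing about stability. Of the scores of single steps, 4 alternatives moved the gap between libraries 2 and 3 by more than the SD of the score over libraries, 3 of them with only members at 5 FPKM or more. No paired analysis was possible because the labels give 1 group.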
